A study of Mus musculus with 28 samples.

Results

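The 38 genes described here act in homologous recombination, in the Fanconi pathway and in the DNA damage checkpoint of the mouse. They were chosen by symbol from the 53564 gene symbols of the deposited expression table, and all 38 were found in it. Homologous recombination repairs a broken chromosome by copying an intact one: the ends are resected to single strands, mediators prepare these strands for pairing, and the strands invade the matching duplex. The Fanconi pathway unhooks crosslinks that block replication forks and hands the resulting break to recombination, and the checkpoint kinases Atm and Atr signal damage to the cell cycle. Germ cells use the same machinery during meiosis, and unprotected short telomeres are known to be sensed as broken ends by the checkpoint.

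The study asked how telomere length bears on the formation of primordial germ cells (PGCs). LT cells (long telomere) came from wild-type C57BL6 embryonic stem cells (ESCs). ST cells (short telomere) came from ESCs of generation 4 of a knockout of Terc, the RNA template of telomerase. RT cells came from Terc-rescued ESCs with restored telomere length. Groups named 1dEB are embryoid bodies after 1 day of induction toward PGC-like cells, with BMP4, SCF, EGF and LIF, from epiblast-like cells of day 2, and no sorting step is given for them. Groups named 1dMeioLC are meiocyte-like cells. For these, PGC-like cells of day 4 were aggregated with female gonadal somatic cells of E12.5 Actin-GFP embryos, kept for 1 day with 3 µM retinoic acid and sorted as GFP-negative cells. E10.5PGC are PGCs of E10.5 embryos sorted by CD61 and SSEA1, and PGC-1dMeioLC are such PGCs after the same aggregate culture. The labels give neither the number of ESC lines or clones behind LT, ST and RT nor the number of embryos, and they do not say whether the 2 samples of a group are separate cultures, so p-values measure the spread between these samples, which may be technical.

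Total RNA of 16 libraries in these 8 groups of 2 was used, of 28 samples in the series. Levels are given as scaled TPM, transcripts per 1000000 nuclear protein-coding transcripts, because these transcripts made up from 28.2% of the deposited TPM in RT-1dEB to 61.2% in E10.5PGC. Depth is unknown, since the table holds no counts. Changes are differences of log2(scaled TPM + 1) with the standard error (SE) from a limma fit over 21935 genes, and they understate the change of low genes. A gene is said to have risen or fallen only at an adjusted p under 0.05. Terc, the deleted gene, was listed at 0 in both libraries of ST-1dEB and of ST-1dMeioLC and was above 0 in both libraries of LT and RT at each stage. It was also listed at 0 in both libraries of PGC-1dMeioLC, whose labels name no knockout. The 8 germ cell markers summed to 6137 and 6140 in E10.5PGC, to between 308 and 1896 in the 1dMeioLC libraries and to between 132 and 239 in the 1dEB libraries. The 10 markers of gonadal somatic cells summed to between 297 and 511 in the 1dMeioLC libraries against 40.2 and 42.9 in E10.5PGC, where Foxl2 was at 0. In bulk samples fewer cells of a type and less RNA per cell cannot be told apart.

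All 38 genes were measured above 0 in every library and all passed the filter on low values. Their levels ran from 1.57 for Fancc in an LT-1dMeioLC library to 353 for Rad9a in an RT-1dEB library. The median over the genes was 15.4 in LT-1dEB, 14.2 in E10.5PGC and 14.0 in RT-1dEB. It was lower in the others, at 9.90 in PGC-1dMeioLC, 9.04 in LT-1dMeioLC, 9.02 in ST-1dEB, 7.82 in RT-1dMeioLC and 7.54 in ST-1dMeioLC. By group mean 12 genes were highest in LT-1dEB, 10 in RT-1dEB and 9 in E10.5PGC, and none in ST-1dMeioLC. The lowest group was ST-1dMeioLC for 12 genes and RT-1dMeioLC for 10, and LT-1dEB was the lowest for none. These orders are descriptions without a test.

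**Figure D1:**
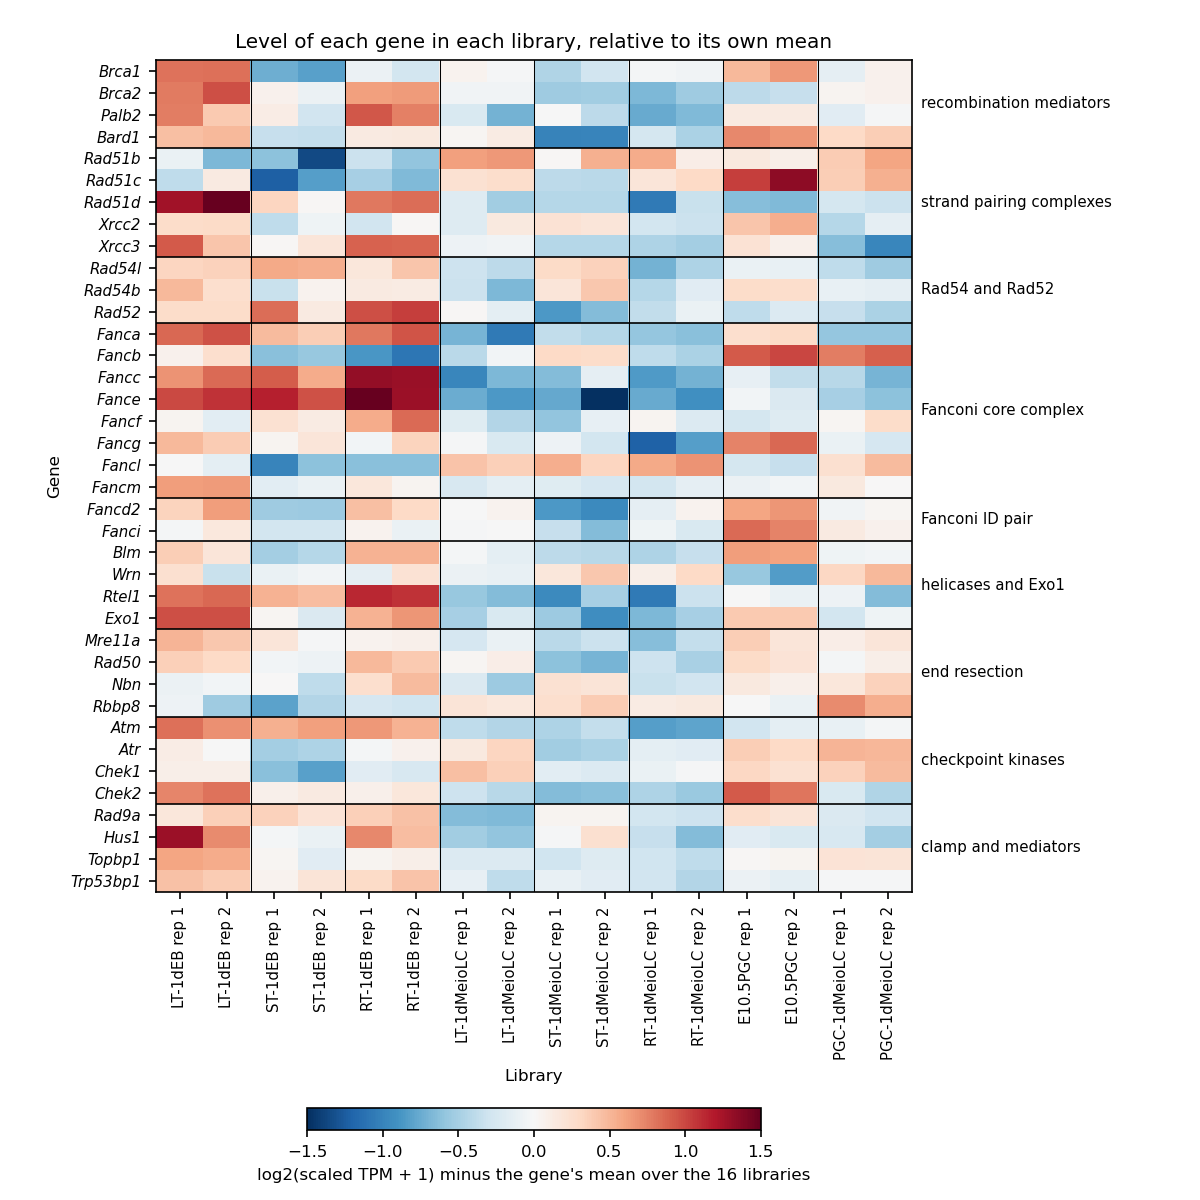
Level of each of the 38 genes (rows, grouped by role) in each of the 16 libraries (columns, by group), as the difference of log2(scaled TPM + 1) from the gene's mean over the libraries. The LT-1dEB columns are mostly above the mean and the RT-1dMeioLC columns mostly below it, with medians over the genes of 15.4 and 7.82 scaled TPM, and the ST-1dEB columns are paler or bluer than the LT-1dEB columns beside them for most genes.

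Promoters are shown for genes that fell in ST against LT at 1 or both stages and whose start sites RefSeq gives on GRCm38.p6. They are those of such genes with the largest falls at either stage. Brca1 and Bard1 act as a pair, Rad51c fell at both stages, and the direction of Hus1 differed between the stages. Each runs 5′ to 3′ on the gene's own strand from 250 bases before the transcription start to 50 bases after it. Capitals mark E2F letters (TTTCCCGC, TTTGGCGC, TTTCGCGC or TTTGCCGC), the cell cycle homology letters TTTGAA (printed TTCAAA on the other strand) and CCAAT, each searched on both strands.
Brca1, chr11:101551906-101552205, minus strand: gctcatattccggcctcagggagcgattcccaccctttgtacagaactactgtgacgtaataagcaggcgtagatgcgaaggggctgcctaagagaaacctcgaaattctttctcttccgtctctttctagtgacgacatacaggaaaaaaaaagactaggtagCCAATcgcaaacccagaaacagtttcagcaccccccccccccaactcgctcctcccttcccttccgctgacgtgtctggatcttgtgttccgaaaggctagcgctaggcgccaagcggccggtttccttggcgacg
Bard1, chr1:71102923-71103222, minus strand: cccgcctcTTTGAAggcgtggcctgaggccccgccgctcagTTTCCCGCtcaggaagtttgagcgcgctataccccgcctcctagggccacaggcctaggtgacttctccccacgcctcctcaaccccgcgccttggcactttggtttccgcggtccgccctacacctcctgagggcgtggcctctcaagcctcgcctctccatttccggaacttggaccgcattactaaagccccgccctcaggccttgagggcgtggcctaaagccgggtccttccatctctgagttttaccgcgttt
Hus1, chr11:9011142-9011441, minus strand: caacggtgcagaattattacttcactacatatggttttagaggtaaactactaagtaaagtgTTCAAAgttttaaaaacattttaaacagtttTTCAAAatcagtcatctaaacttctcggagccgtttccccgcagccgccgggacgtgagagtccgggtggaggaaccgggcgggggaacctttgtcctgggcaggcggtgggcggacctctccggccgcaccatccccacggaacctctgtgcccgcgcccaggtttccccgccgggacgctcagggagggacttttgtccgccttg
Rad51c, chr11:87404457-87404756, minus strand: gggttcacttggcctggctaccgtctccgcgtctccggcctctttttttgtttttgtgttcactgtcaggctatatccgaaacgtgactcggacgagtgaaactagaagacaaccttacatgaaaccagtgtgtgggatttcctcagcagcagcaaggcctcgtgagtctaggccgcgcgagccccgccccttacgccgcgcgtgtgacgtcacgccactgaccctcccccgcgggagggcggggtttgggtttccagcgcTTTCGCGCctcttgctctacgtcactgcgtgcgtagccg

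The Bard1 window held E2F letters beginning at -209 and cell cycle homology letters at -242 from the start. The Brca1 window held CCAAT at -86 and none of the other letters, and the Hus1 window held cell cycle homology letters at -188 and -157. The Rad51c window, the first of its 2 in RefSeq, held E2F letters at 12, after the start. RefSeq gave 31 promoters for 28 of the 38 genes. E2F letters were in 7 of these 31 (22.6%), those of Brca2, Bard1, Rad51c, Fancg, Chek2 and Topbp1, against 744 of all 32851 promoters (2.26%). CCAAT was in 17 of 31 (54.8%) against 37.4% of all, and TTTGAA in 3 of 31 (9.68%) against 17.9%. A match is a description of letters and not a binding site, and matches were not tested against the changes.

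The first comparison set ST against LT at the start of germ cell induction. ST and LT cells differed in Terc and in the ESCs they came from as well as in telomere length. Effects of these cannot be told apart here. In ST-1dEB 25 of the 38 genes fell against LT-1dEB and 0 rose by limma, where 18.8% of all genes tested fell and 22.0% rose. At an unadjusted p under 0.05 no gene was higher either. The median difference over the 38 genes was -0.53 on the log2 scale, against 0.00 over all genes. With TPM as deposited 16 fell, all of them among the 25, and 1 rose, Rad54l. The recombination mediators all fell, 4 of 4, as did both proteins of the Fanconi clamp, while the end resection genes and the Fanconi core complex were split between genes that fell and genes that did not pass.

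Among the mediators, Brca1, the ubiquitin ligase that with Bard1 promotes resection of broken ends, lies on chromosome 11 from 101488764 to 101551955 in GENCODE M21 (GRCm38). It had 22.8 and 23.1 scaled TPM in the LT-1dEB libraries and 7.12 and 6.72 in the ST-1dEB libraries. These libraries were far apart and the fall was -1.59 (SE 0.11, adjusted p 1.0e-06), 3.02-fold. It was the largest fall among the 38 genes in this comparison. Its partner Bard1 (chromosome 1, 71027498 to 71103146) had 13.0 and 13.3 in LT-1dEB and 7.00 and 6.98 in ST-1dEB and fell by 0.83. Brca2, a mediator that acts on single-stranded DNA, fell from 15.6 and 17.8 to 9.07 and 8.08. Palb2, the bridge between Brca1 and Brca2, had 9.74 and 7.31 against 5.82 and 4.17 and fell by 0.67, with an adjusted p of 0.092 on deposited TPM.

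Rad51b, Rad51c, Rad51d, Xrcc2 and Xrcc3 form complexes that assist strand pairing, and 4 of these 5 fell. Rad51d had 23.7 and 30.8 scaled TPM in LT-1dEB and 11.9 and 9.44 in ST-1dEB, a fall of -1.27 (SE 0.22, adjusted p 9.2e-04). Rad51c (chromosome 11, 87376645 to 87404954) fell from 7.47 and 11.1 to 3.72 and 5.21. Xrcc2 and Xrcc3, the others that fell, did so by 0.50 and 0.58, and neither passed on deposited TPM. The libraries of Rad51b overlapped between the groups. The motor protein Rad54l, which helps strands invade the duplex, had 27.9 and 28.2 in LT-1dEB and 33.3 and 32.6 in ST-1dEB and did not pass on scaled TPM (0.22, adjusted p 0.11). Lrrc41, which shares exon bases with Rad54l on the opposite strand, rose by 0.56. Rad54b, a relative of Rad54l, fell by 0.52 only on scaled TPM, and Rad52, which anneals single strands, overlapped between the groups.

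In the Fanconi pathway the clamp proteins Fancd2 and Fanci, which the core complex marks with ubiquitin at a crosslink, both fell. Fancd2 (chromosome 6, 113531682 to 113597017) had 13.6 and 16.9 scaled TPM in LT-1dEB and 6.99 and 6.94 in ST-1dEB, a fall of -1.02 (SE 0.12, adjusted p 5.1e-05). Fanci fell by 0.34 only on scaled TPM. In the core complex 4 of 8 genes fell: Fancl, the ubiquitin ligase subunit, by 0.72, Fancm, the DNA translocase, by 0.76, Fancb by 0.76 and Fanca by 0.49. On deposited TPM Fanca did not pass (-0.27, adjusted p 0.10). Fancc and Fance overlapped between the groups, and Fancf (0.24) and Fancg (-0.32) did not pass. Of the opposite-strand neighbours that share exon bases, Fancd2os fell by 1.19 beside Fancd2 and Vrk2 by 0.60 beside Fancl. The neighbour of Fancc, 2010111I01Rik, rose by 1.16, and Polg beside Fanci (-0.20) and Zfp276 beside Fanca (-0.16) were not called.

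Among the helicases and nucleases, Exo1, the exonuclease of long-range resection, had 28.4 and 28.3 scaled TPM in LT-1dEB and 14.3 and 11.9 in ST-1dEB. Its fall was -1.06 (SE 0.15, adjusted p 2.3e-04). Blm, the RecQ helicase that takes apart crossed strands, fell by 0.74, while its relative Wrn overlapped and the telomere helicase Rtel1 did not pass (-0.35, adjusted p 0.29). Of the complex that first binds and trims broken ends, Rad50 fell by 0.38 and Mre11a by 0.37, neither of them on deposited TPM, and Nbn overlapped. Ankrd49, which shares exon bases with Mre11a, fell by 0.45. Rbbp8, the resection factor known as CtIP, overlapped as well.

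Of the kinases, Chek1, which Atr activates at stalled forks, lies on chromosome 9 from 36708482 to 36727065. It had 26.1 scaled TPM in each LT-1dEB library and 15.5 and 13.5 in ST-1dEB and fell by 0.81. Chek2, the target of Atm, fell by 0.67 from 31.4 and 33.2, and Atr fell by 0.54 from 6.82 and 6.25. Atm itself had 14.4 and 13.0 against 11.6 and 12.3 and did not pass (-0.18, adjusted p 0.20). Hus1, part of the sliding clamp that helps activate Atr (chromosome 11, 8993137 to 9011191), had 21.2 and 13.9 in LT-1dEB and 7.92 and 7.51 in ST-1dEB. It fell by -1.06 (SE 0.19, adjusted p 0.0013), with its LT libraries further apart from each other than its ST libraries. Rad9a, from the same clamp, had 293 and 333 against 330 and 300, so that the groups overlapped. Topbp1, the activator of Atr, fell by 0.64, and Trp53bp1, which restrains resection, was at the threshold (-0.28, adjusted p 0.050 after rounding) and did not pass on deposited TPM.

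Other lists moved in the same comparison. Of 22 proliferation genes 21 fell and their summed level went from between 2981 and 3058 to between 1782 and 1798. All 8 stroma markers rose, from sums of 64.3 and 67.6 to 1191 and 1222, among them Col1a1 (4.64) and Mgp (4.50). Of 18 targets of p53 12 rose, Cdkn1a by 3.24. Of 8 germ cell markers 5 fell and 2 rose, Nanos3 by 1.28 and Prdm1 by 0.80, and 6 of 8 pluripotency markers fell. Gonadal somatic markers (4 higher, 2 lower of 10), endothelial markers (1 lower of 4) and macrophage markers (1 lower of 4) were called in these numbers. Their part in the result was not tested. Leaving out 1 library at a time left between 19 and 21 genes called lower, and 17 were called in each of the 4 cases.

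The same contrast in the meiotic culture gave calls in both directions. In ST-1dMeioLC 12 of the 38 genes fell against LT-1dMeioLC and 7 rose, where 13.8% of all genes tested fell and 20.1% rose. The share that rose was thus near that of all genes. The median difference was -0.06 on the log2 scale against 0.01 for all genes. On deposited TPM the counts were 13 and 7. Genes of the mediators, of the Fanconi clamp and of the checkpoint kinases were among those that fell, and genes of the Rad54 pair, of the Fanconi core complex and of the sliding clamp among those that rose. Without LT-1dMeioLC replicate 1 the genes called lower were 7, and without LT-1dMeioLC replicate 2 those called higher were 4.

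Bard1 had 9.44 and 10.1 scaled TPM in LT-1dMeioLC and 4.11 and 4.12 in ST-1dMeioLC. The groups were far apart and the fall was -1.08 (SE 0.09, adjusted p 2.7e-05), 2.11-fold. Fancd2 had 10.8 ± 0.335 (SD, n = 2) against 5.37 and 4.96, a fall of -0.93 (SE 0.12, adjusted p 2.3e-04). The antisense neighbour Fancd2os, which shares 3.24% of the exon bases of Fancd2, was also called lower (-1.01). Brca1 had 13.0 and 12.4 against 8.90 and 10.1 and fell by 0.39, Brca2 fell by 0.47 and Rad51c by 0.64. Rad50 had 40.8 and 42.8 against 25.8 and 24.3 and fell by 0.72, with no overlap. Of the kinases, Atr had 7.02 and 8.07 against 4.06 and 4.23 and fell by 0.73 (SE 0.10, adjusted p 4.9e-04), Chek1 fell by 0.59 and Chek2 by 0.28, and Atm did not pass (0.01, SE 0.10). Gm16794, among the genes that share 5.78% of the exon bases of Atr, was called lower too (-0.65). Fanci (-0.48), Blm (-0.32) and Rad52 (-0.69) made up the rest of those that fell, and Polg, which shares exon bases with Fanci on the opposite strand, was lower as well (-0.54).

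Of the genes that rose, Rad54b (chromosome 4, 11558922 to 11615805) had 7.81 and 5.93 scaled TPM in LT-1dMeioLC and 11.5 and 13.6 in ST-1dMeioLC. Both ST libraries were above both LT libraries and the rise was 0.79 (SE 0.16, adjusted p 0.0043). A share of 35.9% of its exon bases lies in Fsbp or Gm11832, and neither was called. Fsbp gave -0.25, and Gm11832 gave 0.62 (adjusted p 0.12), the direction of Rad54b. Rad9a (chromosome 19, 4195196 to 4201662) had 165 and 164 against 268 and 267, a rise of 0.70 (SE 0.07, adjusted p 4.3e-05). Rad54l had 17.6 and 16.5 against 27.2 and 28.4 and rose by 0.68. The opposite-strand neighbours that share exon bases with them also rose, Ppp1ca by 0.91 beside Rad9a and Lrrc41 by 0.74 beside Rad54l, and since the sources used here do not state whether counting used strand, reads of such neighbours cannot be told apart. Hus1 had 5.34 and 5.07 against 8.05 and 9.80 and rose by 0.67, Nbn by 0.59, Fancb by 0.51 and Fanca by 0.48.

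Beside these, 5 of 8 germ cell markers fell, Dppa3 by 4.03 and Ddx4 by 2.36, and their sum was 1576 and 1646 in LT-1dMeioLC against 308 and 319 in ST-1dMeioLC. Gonadal somatic markers summed to 313 and 325 against 503 and 511, with 5 of 10 higher and 1 lower. Of the p53 targets 10 of 18 rose and 1 fell, of the proliferation genes 2 of 22 rose and 8 fell, and of the pluripotency markers 4 of 8 rose. Macrophage (3 of 4 lower), endothelial (2 of 4 lower) and stroma markers (2 of 8 higher, 4 lower) also moved. Their part in the result was not tested.

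**Figure D2:**
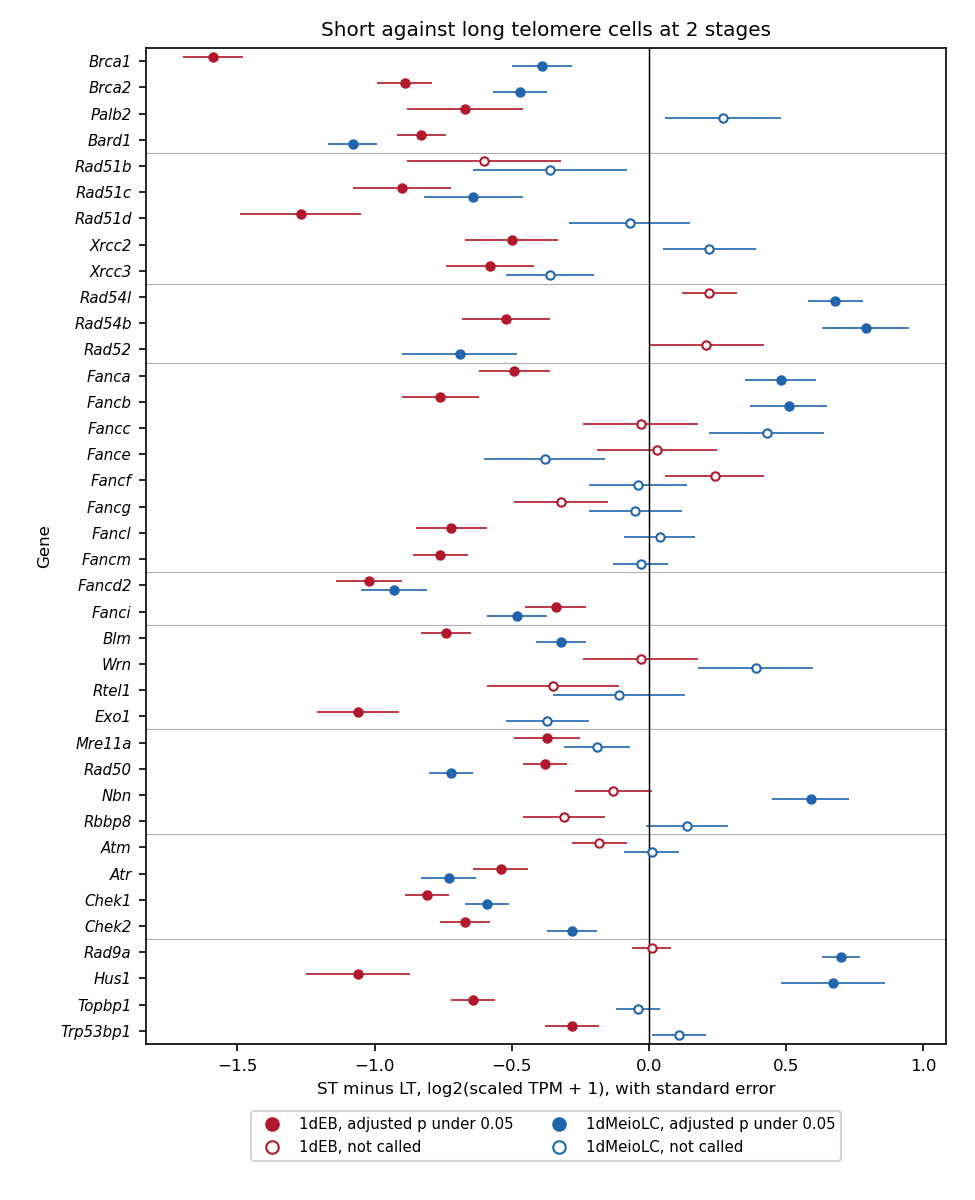
Difference of log2(scaled TPM + 1) between ST and LT for each of the 38 genes at the 1dEB and the 1dMeioLC stage, with bars of 1 SE from the limma fit and filled points where the adjusted p was under 0.05. Bard1 and Fancd2 lie below 0 at both stages (-0.83 and -1.08, -1.02 and -0.93), while Hus1 goes from -1.06 to 0.67 and Rad54b from -0.52 to 0.79.

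The difference between the stages was tested directly, as the ST minus LT change in 1dMeioLC less that in 1dEB. It was above 0 for 18 genes and below 0 for 2, where 18.9% of all genes tested were above and 18.8% below. On deposited TPM it was above 0 for 8, all among the 18, and below 0 for 5, and the median over all genes shifted from 0.00 to -0.18. The 8 were Brca1, Rad51d, Rad54b, Fanca, Fancb, Fancm, Rad9a and Hus1, and they passed under every alternative tried. Without ST-1dMeioLC replicate 1 the genes above 0 numbered 11.

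Hus1 moved most, by 1.74 (SE 0.27, adjusted p 7.1e-04), from a fall of -1.06 to a rise of 0.67. Rad54b followed with 1.31 (SE 0.23, adjusted p 0.0015), then Fancb with 1.27 (SE 0.20, adjusted p 6.2e-04) and Brca1 with 1.21 (SE 0.15, adjusted p 1.6e-04). These 4 genes did not share one course: Hus1, Rad54b and Fancb, with Fanca, fell in 1dEB and rose in 1dMeioLC, whereas Brca1 fell at both stages and less in 1dMeioLC. In all 11 genes fell at both stages, namely Brca1, Brca2, Bard1, Rad51c, Fancd2, Fanci, Blm, Rad50, Atr, Chek1 and Chek2, where 4.26% of all genes tested fell at both. Of these, Fanci and Rad50 did not pass in 1dEB on deposited TPM. The 1dMeioLC falls of Brca1, Rad51c, Fanci, Blm and Chek2 were not called in every case when a library was left out. The course of Hus1, Rad54b, Fancb and Fanca, lower and then higher, was that of 3.81% of all genes tested. On deposited TPM the 1dEB falls of Rad54b (-0.30, adjusted p 0.14) and Fanca (-0.27, adjusted p 0.10) did not pass. The 1dMeioLC rises of Hus1, Fancb and Fanca were not called in every case when a library was left out. For Bard1 the difference between the stages was -0.25 and for Fancd2 0.09, and neither passed. Rad52 (-0.90) and Rad50 (-0.34) were below 0. Among the context lists 17 of 22 proliferation genes were above 0 and 8 of 8 stroma markers below 0 in this test. Of the p53 targets Cdkn1a (-2.76) and Mdm2 (-2.15) were among those below 0, and Sesn1 (0.83) and Pmaip1 (0.78) were above it. Germ cell markers passed only below 0, among them Dppa3 (-2.65) and Ddx4 (-1.78). Pluripotency markers passed only above 0, among them Nanog (2.58) and Pou5f1 (1.93). The part of these lists in the result was not tested.

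Rescued cells were compared with the short-telomere and the long-telomere cells to ask whether restored telomere length went with restored levels. The comparisons RT against ST, RT against LT and ST against LT share libraries, so each is given by its own values. In RT-1dEB 16 of the 38 genes rose against ST-1dEB and 0 fell by limma, where 18.6% of all genes tested rose and 17.0% fell. At an unadjusted p under 0.05, 2 genes were lower, Rad54l and Fancb. This direction turned with the scale: the median difference was 0.47 on scaled TPM and -0.10 on TPM as deposited, where 2 genes rose (Blm and Fancd2) and 12 fell. All genes moved with the scale too, from a median of 0.04 to -0.38, and relative to it the 38 genes were higher by 0.43 on scaled and by 0.28 on deposited TPM. The nuclear protein-coding share was 28.2% in RT-1dEB against 44.3% in ST-1dEB.

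Blm had 8.63 and 9.20 scaled TPM in ST-1dEB and 18.6 and 18.7 in RT-1dEB. It rose by 0.99 (SE 0.09, adjusted p 2.0e-05), and the LT-1dEB libraries, with 16.6 and 14.5, lay below RT-1dEB without passing (adjusted p 0.051). Fancd2 had 6.99 and 6.94 in ST-1dEB and 14.8 and 13.3 in RT-1dEB, a rise of 0.91 (SE 0.12, adjusted p 1.9e-04). Palb2 rose by 0.93 from 5.82 and 4.17 to 11.0 and 9.67 on scaled TPM, but on deposited TPM the change was 0.29 (adjusted p 0.22), and without ST-1dEB replicate 2 it was 0.73 (adjusted p 0.055). Xrcc3 (0.79) and Exo1 (0.68) rose on scaled TPM, and on deposited TPM they gave 0.16 (adjusted p 0.40) and 0.06 (adjusted p 0.79). Brca1 had 11.7 and 10.2 in RT-1dEB, above the 7.12 and 6.72 of ST-1dEB and below LT-1dEB, with a rise of 0.60 on scaled and 0.01 on deposited TPM. Chek1, with 21.7 and 20.6 against 15.5 and 13.5, rose by 0.52 on scaled TPM and gave -0.09 on deposited TPM.

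Against LT-1dEB, 10 genes fell in RT-1dEB and 3 rose, where 14.4% of all genes tested fell and 23.5% rose. On deposited TPM 26 fell, the 10 among them, and none of the 3 rose, and with quantile normalization 19 fell. Fancb (X chromosome, 164980592 to 164997272), a core complex scaffold, had 7.77 and 9.00 in LT-1dEB, 4.43 and 4.67 in ST-1dEB and 3.61 and 2.97 in RT-1dEB. RT-1dEB was the lowest of the 3 groups, with a fall of -1.13 against LT (SE 0.14, adjusted p 1.3e-04) and of -1.14 on deposited TPM. Brca1 fell by 1.00 (SE 0.11, adjusted p 4.8e-05), and Chek2, with 19.6 and 20.9 in RT-1dEB, fell by 0.65. Fancf rose by 0.77 (SE 0.18, adjusted p 0.0071), but on deposited TPM it gave 0.30 (adjusted p 0.19), and the adjusted p was 0.051 without LT-1dEB replicate 2 and 0.062 without RT-1dEB replicate 2. Rad52 rose by 0.73 with an adjusted p of 0.018 that became 0.29 on deposited TPM, 0.067 with quantile normalization and 0.058 to 0.085 with any 1 of the 4 libraries left out. Without LT-1dEB replicate 2 the genes called higher were 1, and without RT-1dEB replicate 2 they were 0.

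In these rescued embryoid bodies the proliferation genes summed to 2436 and 2468, between ST-1dEB and LT-1dEB. Against ST-1dEB 17 of 22 rose and 1 fell, but on deposited TPM 1 rose and 12 fell. The stroma markers summed to 691 and 709 and 7 of 8 fell against ST-1dEB. All 8 rose against LT-1dEB. The p53 targets summed to 3426 and 3534, and against LT-1dEB 15 of 18 rose and 1, Pmaip1, fell, while on deposited TPM 9 rose and 2 fell. Their part in the result was not tested.

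**Figure D3:**
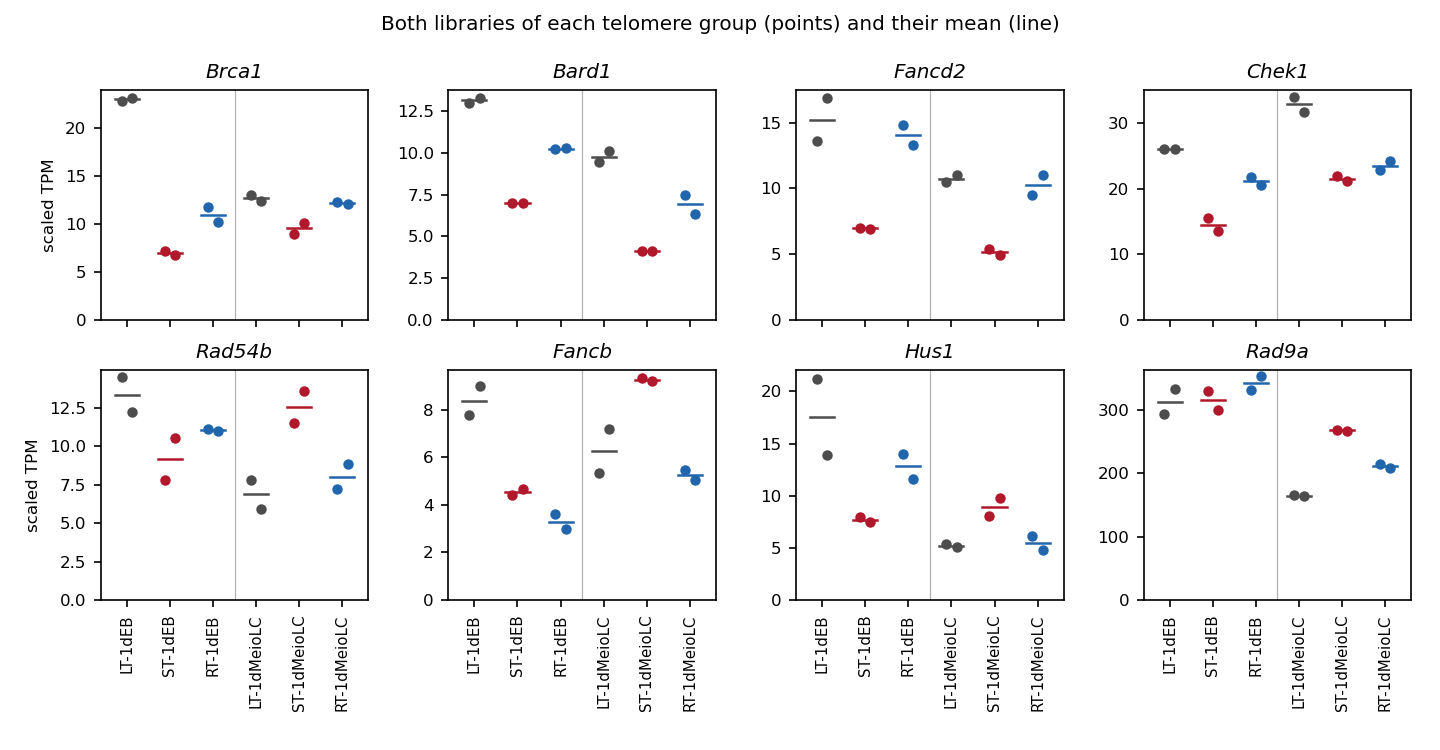
Scaled TPM of 8 genes in each library (points) of the LT, ST and RT groups at the 1dEB and 1dMeioLC stages, with the group mean as a line. Brca1 falls from 22.8 and 23.1 in LT-1dEB to 7.12 and 6.72 in ST-1dEB and stands at 11.7 and 10.2 in RT-1dEB, while Fancb is lowest in RT-1dEB at 3.61 and 2.97.

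In the meiotic culture RT-1dMeioLC had 7 genes higher and 9 lower than ST-1dMeioLC, where 10.4% of all genes tested were higher and 24.1% lower. The median difference was -0.07 against -0.11 for all genes, and with quantile normalization 4 were lower. Fancd2 had 5.37 and 4.96 in ST-1dMeioLC and 9.51 and 11.0 in RT-1dMeioLC, a rise of 0.87 (SE 0.12, adjusted p 3.9e-04), and Bard1 rose by 0.63 (SE 0.09, adjusted p 7.0e-04) from 4.11 and 4.12 to 7.50 and 6.35. These were the only genes called higher whichever 1 of the 4 libraries was left out. Rad51c rose by 0.64 (adjusted p 0.022), but with any 1 library left out its adjusted p was between 0.059 and 0.10. Rad54l had 13.1 and 15.7 in RT-1dMeioLC and fell by 0.91 (SE 0.10, adjusted p 1.3e-04), and its neighbour Lrrc41 was lower by 0.85. Fancg, a core complex subunit, had 7.14 and 6.14 in ST-1dMeioLC and 2.71 and 3.84 in RT-1dMeioLC and fell by 0.85 (SE 0.17, adjusted p 0.0033). Fancb fell by 0.72 and Rad9a, with 214 and 209, by 0.34. The genes called higher numbered 3 without ST-1dMeioLC replicate 2, 2 without RT-1dMeioLC replicate 1 and 4 without RT-1dMeioLC replicate 2, and those called lower 5 without ST-1dMeioLC replicate 2 or RT-1dMeioLC replicate 1. The neighbours Ppp1ca (-0.43, beside Rad9a) and Polg (0.39, beside Fanci) moved the same way as these genes. In this comparison 12 of 18 p53 targets fell, and of 8 germ cell markers 6 rose, to sums of 1109 and 1166, and 1, Prdm1, fell by 0.80. Gonadal somatic markers fell in 7 of 10 cases and rose in 1, to sums of 297 and 300, and 3 of 4 macrophage markers rose. Their part in the result was not tested.

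Against LT-1dMeioLC the rescued cells had 1 gene higher and 8 lower, where 5.75% of all genes tested were higher and 10.8% lower. With quantile normalization 5 were lower. The gene that rose was Rad9a (0.36, SE 0.07, adjusted p 0.0054), whose neighbour Ppp1ca had a mean of 757 in RT-1dMeioLC and 546 in LT-1dMeioLC. Fancg fell by 0.90 (SE 0.17, adjusted p 0.0059), Brca2 by 0.55, Chek1 by 0.47 and Rad50 by 0.46. Bard1 fell by 0.45 (adjusted p 0.010), and its adjusted p was 0.080 without LT-1dMeioLC replicate 2 and 0.071 without RT-1dMeioLC replicate 2. The genes called lower numbered 4 without either of these libraries and 5 without RT-1dMeioLC replicate 1. Fancd2 (-0.07, SE 0.12) and Rad51c (0.00, SE 0.18) did not pass. The germ cell markers were lower in 4 of 8 cases and the stroma markers in 0 of 8, and their part in the result was not tested.

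**Figure D4:**
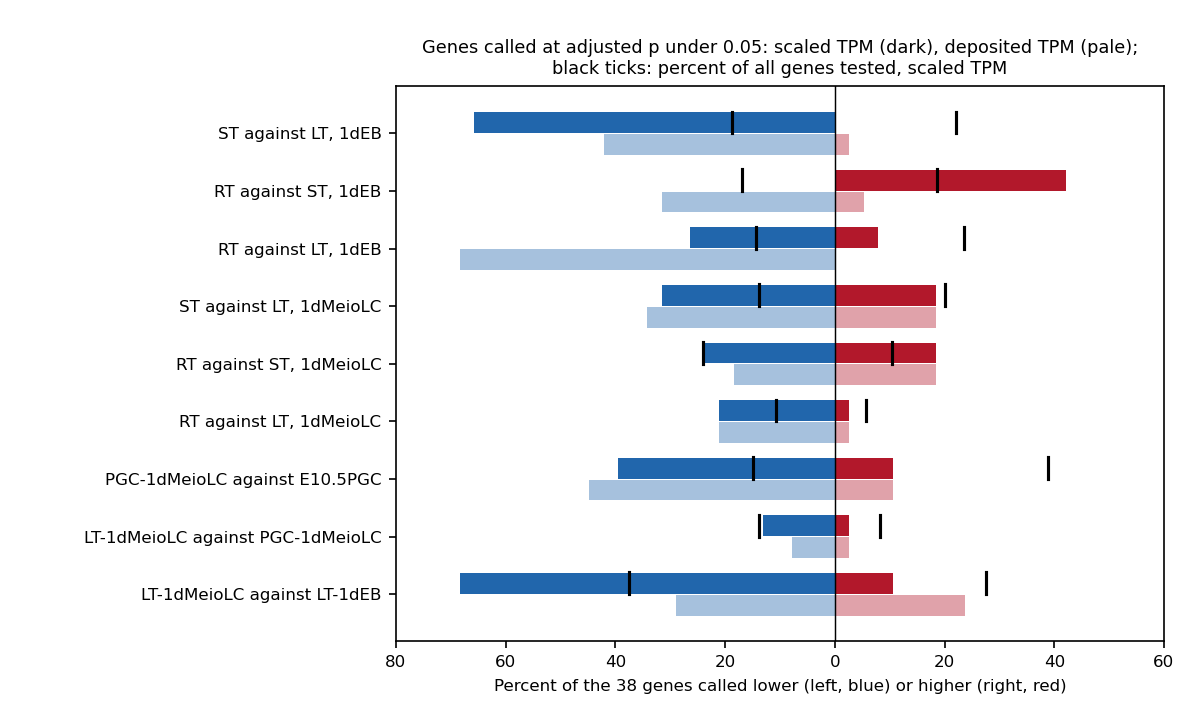
Percent of the 38 genes called lower (left, blue) and higher (right, red) at an adjusted p under 0.05 in 9 comparisons, on scaled TPM (dark) and on TPM as deposited (pale), with black ticks at the percent of all genes tested that were called on scaled TPM. The ticks belong to the dark bars, and no share of all genes is drawn for the pale bars. ST against LT in 1dEB gives 25 genes lower on scaled and 16 on deposited TPM, and RT against ST in 1dEB changes from 16 higher and 0 lower to 2 higher and 12 lower.

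Embryonic PGCs were compared before and after the meiotic culture. In PGC-1dMeioLC 15 of the 38 genes fell against E10.5PGC and 4 rose, where 15.0% of all genes tested fell and 38.9% rose. The median difference was -0.22 against 0.28 for all genes, and with quantile normalization 28 fell and 1 rose. Chek2 had 35.9 and 33.0 scaled TPM in E10.5PGC and 15.6 and 13.3 in PGC-1dMeioLC, a fall of -1.20 (SE 0.09, adjusted p 1.2e-06). Fancg fell from 13.4 and 14.7 to 7.01 and 6.22, by 0.98. Xrcc3 fell by 0.95 from 9.35 and 8.43 to 4.76 and 3.53, Fanca by 0.85 and Rad51c, from 21.6 and 27.0 to 13.2 and 14.9, by 0.74. The kinases Atm, Atr and Chek1, by contrast, did not pass (0.15, 0.17 and 0.15).

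Of the genes that rose in the cultured PGCs, Wrn went from 2.29 and 1.72 to 5.06 and 5.83, by 1.10 (SE 0.21, adjusted p 0.0011), but with quantile normalization it gave 0.28 (adjusted p 0.21). Fancl rose by 0.66 from 25.3 and 23.7 to 36.2 and 42.8 and was the one of the 4 called under every alternative. Its opposite-strand neighbour Vrk2, which shares exon bases with it, had means of 6.98 in E10.5PGC and 12.7 in PGC-1dMeioLC. Rbbp8 rose by 0.68 and Brca2, from 6.33 and 6.60 to 8.95 and 9.09, by 0.43. In the same comparison 17 of 22 proliferation genes fell, to sums of 1850 and 1878 from 2857 and 2884, and Ccne2 rose 2.29-fold. Of 8 germ cell markers 5 fell, Dppa3 by 2.66, and 2 rose, Dazl by 0.85 and Ddx4 by 0.74. All 10 gonadal somatic and all 8 stroma markers rose, the latter from sums of 11.3 and 11.6, with Mgp at 0 in E10.5PGC, to 674 and 692, and 3 of 4 macrophage markers rose. Of the p53 targets most rose, among them Plk2 (3.08), Ccng1 (1.87) and Cdkn1a (1.39), and Bax (-1.58), Aen (-0.99) and Gtse1 (-0.74) fell. Their part in the result was not tested.

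Meiocyte-like cells from LT ESCs were set beside those from embryonic PGCs. In LT-1dMeioLC 5 of the 38 fell against PGC-1dMeioLC and 1 rose, where 13.8% of all genes tested fell and 8.32% rose. The share that fell was thus near that of all genes. The median difference was -0.22 on scaled and -0.07 on deposited TPM, against -0.05 and 0.00 for all genes. Fancb had 5.34 and 7.18 scaled TPM in LT-1dMeioLC and 13.3 and 14.6 in PGC-1dMeioLC, and it fell by -1.05 (SE 0.14, adjusted p 6.4e-04). Rad9a fell by 0.40, Nbn by 0.63, Topbp1 by 0.40 and Atm by 0.34, and of these Topbp1 (adjusted p 0.056) and Atm (0.17) did not pass on deposited TPM. Xrcc3, with 7.49 and 7.60 against 4.76 and 3.53, rose by 0.74 (adjusted p 0.010). Its adjusted p was 0.062 without LT-1dMeioLC replicate 2 and 0.076 without PGC-1dMeioLC replicate 2, and that of Nbn was 0.088 and 0.066. Without either library 3 genes were called lower and 0 higher. Macrophage markers summed to 93.7 and 93.8 in LT-1dMeioLC against 197 and 207 in PGC-1dMeioLC, with 3 of 4 lower, and stroma markers to 498 and 514 against 674 and 692, with 3 of 8 lower. Of 8 germ cell markers 3 were lower and of 22 proliferation genes 6 were lower and 1 higher, and their part in the result was not tested.

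From the embryoid body to the meiotic culture in LT cells, 26 of the 38 genes fell and 4 rose, where 37.5% of all genes tested fell and 27.6% rose. The call depended on the scale, and on deposited TPM 11 fell and 9 rose and the median changed from -0.64 to -0.03, that of all genes from -0.17 to 0.19. The nuclear protein-coding share was 38.8% in LT-1dEB and 60.7% in LT-1dMeioLC. The core complex genes Fance, from 24.5 and 26.3 to 6.68 and 6.06, and Fanca, from 10.2 and 11.0 to 2.82 and 1.96, fell by 1.84 and 1.79. On deposited TPM they fell by 1.16 and 1.07. Zfp276, which shares exon bases with Fanca on the opposite strand, had means of 14.8 scaled TPM in LT-1dEB and 3.36 in LT-1dMeioLC. Rad51d fell by 1.80 (SE 0.22, adjusted p 3.3e-05), Fancc by 1.59 and Hus1 by 1.55, and each passed on deposited TPM as well. The opposite-strand neighbour of Fancc, 2010111I01Rik, had means of 8.39 in LT-1dEB and 8.55 in LT-1dMeioLC. Rad51b, from 5.63 and 3.45 to 9.83 and 10.1, rose by 1.02 (SE 0.28, adjusted p 0.0090), and Chek1, from 26.1 in each library to 34.0 and 31.7, by 0.32. Fancl (0.47) and Rbbp8 (0.48) were the other genes that rose. Vrk2, beside Fancl, had means of 10.2 in LT-1dEB and 12.9 in LT-1dMeioLC. Without LT-1dEB replicate 2 the genes called higher were 2, and Chek1 was the one gene of the 4 called in every case. Here 15 of 22 proliferation genes fell and 3 rose (Ccne2, Bub1 and Mcm4), and on deposited TPM 11 fell and 8 rose. All 8 pluripotency markers fell, all 10 gonadal somatic markers rose, and of 8 germ cell markers 6 rose and 2 fell. Stroma (7 of 8), endothelial (3 of 4) and macrophage markers (3 of 4) rose too, with 1 stroma and 1 macrophage marker lower. Of the p53 targets most fell, among them Phlda3 (-3.27), Bax (-2.66) and Cdkn1a (-1.10), and Sesn1 (1.59) and Btg2 (1.08) rose. Their part in the result was not tested.

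**Figure D5:**
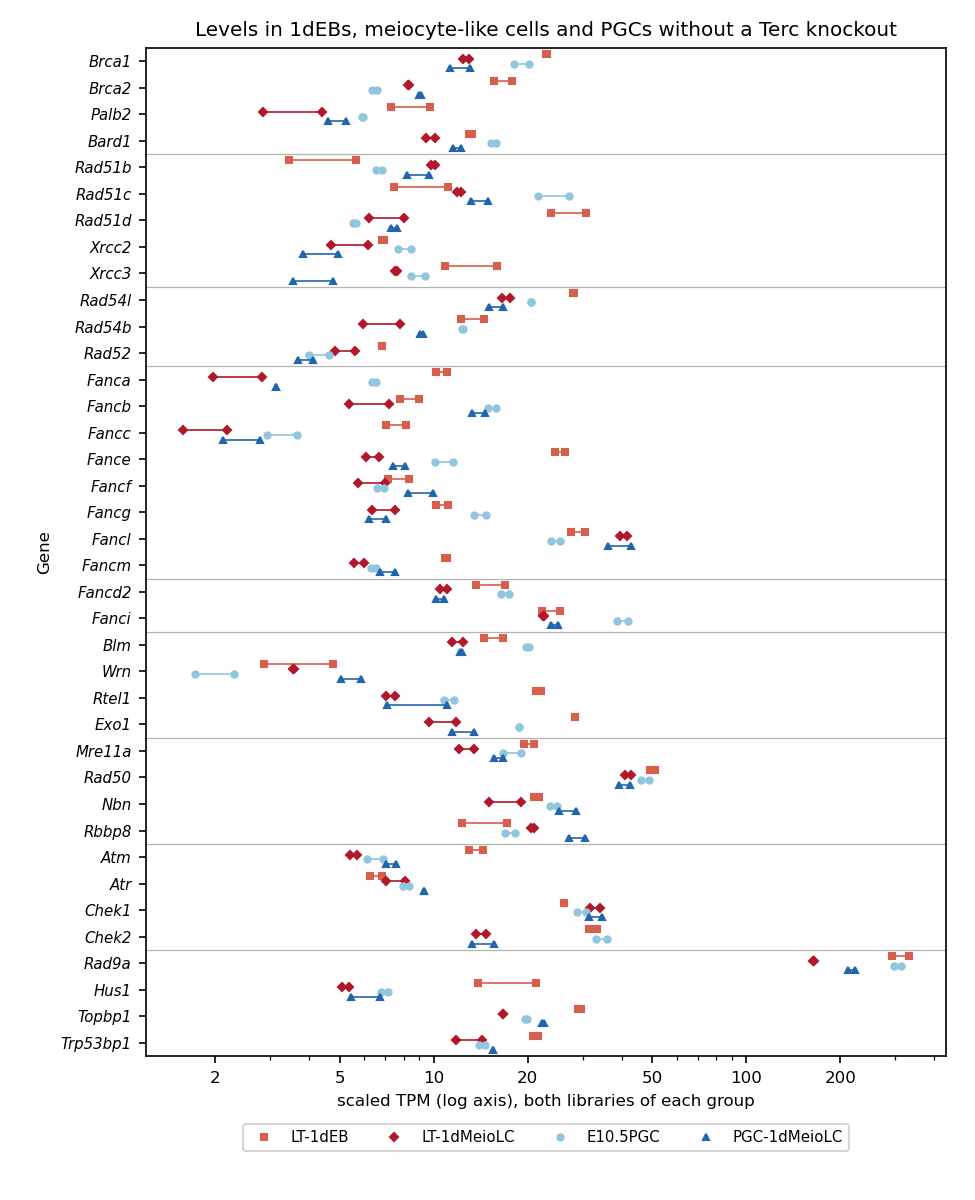
Scaled TPM (log axis) of each of the 38 genes in the libraries of the groups without a Terc knockout or rescue: LT-1dEB, LT-1dMeioLC, E10.5PGC and PGC-1dMeioLC. Rad9a stands above all others at 164 to 333, and Fance, Fanca and Fancc are higher in LT-1dEB than in LT-1dMeioLC.

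A further 52 genes of the same pathways, listed by role and not by how they moved, gave a wider view. Of the 51 tested, 33 fell and 4 rose in ST-1dEB against LT-1dEB, with a median of -0.49, beside 18.8% and 22.0% of all genes. The single-strand binding subunit Rpa3 fell by 1.79 (SE 0.07), the resection nuclease Dna2 by 1.62 and the Atr activator Etaa1 by 1.32. Ercc1, part of the crosslink nuclease, rose by 0.57, Babam2 of the Brca1-A complex by 0.42 and Swi5, a recombination accessory factor, by 0.32. In ST-1dMeioLC against LT-1dMeioLC 15 fell, beside 13.8% of all genes, among them the helicase Recql4 (-1.34), Rpa3 (-1.07) and Ube2t, the conjugating enzyme of the Fanconi pathway (-0.95). The 5 that rose, beside 20.1% of all genes, included the histone H2afx (0.49), Rmi1, a partner of Blm (0.47), and Uimc1 of the Brca1-A complex (0.46). The difference between the stages was above 0 for 20 of the 51 and below 0 for 2, beside 18.9% and 18.8% of all genes.

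In RT-1dEB against ST-1dEB 21 of the 51 rose, H2afx by 1.03 and Dna2 by 0.96, and 4 fell, beside 18.6% and 17.0% of all genes, but on deposited TPM 1 rose and 25 fell. Against LT-1dEB 8 rose and 16 fell in RT-1dEB, beside 23.5% and 14.4% of all genes, and Rpa3 was lower by 1.57. In RT-1dMeioLC 13 rose and 5 fell against ST-1dMeioLC, beside 10.4% and 24.1% of all genes, including a rise of 0.89 for Rpa3 and 0.92 for Brip1, the Fanconi helicase. Against LT-1dMeioLC 4 rose, including Ercc4, a subunit of the crosslink nuclease (0.77), and 6 fell, shares near the 5.75% and 10.8% of all genes. In PGC-1dMeioLC 9 rose and 15 fell against E10.5PGC, beside 38.9% and 15.0% of all genes, with the single-strand binding subunit Rpa2 lower by 1.27 and the checkpoint scaffold Mdc1 higher by 0.89. LT-1dMeioLC had 3 higher and 8 lower than PGC-1dMeioLC, beside 8.32% and 13.8% of all genes, with the checkpoint kinase Wee1 among the latter (-0.85). Against LT-1dEB it had 9 higher and 30 lower, beside 27.6% and 37.5% of all genes, with Ube2t higher by 2.10 and H2afx lower by 1.88.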

How the data were processed

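Libraries were prepared from total RNA with a NEBNext Ultra kit, according to the labels. Build mm10 and the tools HISAT2, Bowtie2, RSEM, DESeq2 and R 3.4.2 are named in the submitters' processing notes, with roles not given in the sources used here. Values are TPM as the authors deposited them, for 53564 gene symbols; each column used sums to 1000000. A total of 12 columns carry 6 names that occur 2 times each and were not used; 16 columns in 8 groups of 2 were matched to samples by name. Depth is unknown, so no interval that needs a count is given.

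TPM was divided by the total over 21806 nuclear protein-coding symbols (GENCODE M21, chromosomes 1 to 19, X and Y) and multiplied by 1000000. The 21935 genes reaching 1 TPM in 2 or more libraries were fitted as log2(scaled TPM + 1) with limma 3.58.1 in R 4.3.3. The fit had 8 groups, a trend on mean level, 8 residual and 2.17 prior degrees of freedom and no replicate block. Tests were 2-sided, and Benjamini-Hochberg adjustment was over all genes within a comparison. The script was tested on simulated data.

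The members and lists were chosen with earlier results of these data known. Full statistics are given for up to 5 genes per comparison, those called with the largest change and no overlap between groups; other members are given by value. Alternatives were deposited TPM, quantile normalization, a pseudocount of 0.1, no filter (40182 genes), each library left out and a replicate block. Promoters and their coordinates are RefSeq's on GRCm38.p6, the same assembly as mm10; gene positions are GENCODE's.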

Additional observations from a re-analysis of the deposited data

Results flagged for a closer look

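The ST minus LT change differed between the 1dMeioLC and the 1dEB stage, by a limma test of the difference itself, for 20 of the 38 genes, and each value is that difference in log2(scaled TPM + 1). It was above 0 for Hus1 (1.74), Rad54b (1.31), Fancb (1.27), Brca1 (1.21), Rad51d (1.21), Fanca (0.97), Palb2 (0.94), Fancl (0.77), Fancm (0.73), Xrcc2 (0.73), Nbn (0.72), Rad9a (0.69), Exo1 (0.69), Topbp1 (0.60), Rad54l (0.45), Blm (0.42), Brca2 (0.41) and Chek2 (0.39). It was below 0 for Rad52 (-0.90) and Rad50 (-0.34). On deposited TPM 8 of the 18 and both of the 2 passed.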

How the results depend on the processing

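The 45 named changes of single genes kept their direction under all 405 alternatives, and 380 kept their side of the threshold. These 45 were chosen, up to 5 per comparison, for the largest change with no overlap. Of the other changes given above, that of Chek1 in RT against ST, 1dEB, turned from 0.52 on scaled to -0.09 on deposited TPM. Counts of genes called moved by over 1.5 times in 46 of 188 alternatives. The shares of all genes given above are on scaled TPM, so counts on other scales have no such share beside them. On deposited TPM the counts higher and lower were 1 and 16 (ST against LT, 1dEB), 2 and 12 (RT against ST, 1dEB), 0 and 26 (RT against LT, 1dEB), 9 and 11 (LT-1dMeioLC against LT-1dEB) and 8 and 5 (stage difference), and LT-1dMeioLC against PGC-1dMeioLC had 3 lower. Quantile normalization gave 1 lower (RT against ST, 1dEB), 19 lower (RT against LT, 1dEB), 4 lower (RT against ST, 1dMeioLC), 5 lower (RT against LT, 1dMeioLC), 1 higher and 28 lower (PGC-1dMeioLC against E10.5PGC) and 1 lower (stage difference); no filter gave 1 lower for the stage difference. The cause was not tested. Leaving out 1 library, with the lone sample assumed to vary like the other groups, gave 0 to 1 higher and 19 to 21 lower (ST against LT, 1dEB; the 1 was Rad52, without ST-1dEB replicate 2), 12 to 14 higher and 0 to 1 lower (RT against ST, 1dEB), 0 to 3 and 7 to 9 (RT against LT, 1dEB), 4 to 6 and 7 to 9 (ST against LT, 1dMeioLC), 2 to 5 and 5 to 7 (RT against ST, 1dMeioLC), 1 and 4 to 6 (RT against LT, 1dMeioLC), 4 and 12 to 14 (PGC-1dMeioLC against E10.5PGC), 0 to 1 and 3 to 5 (LT-1dMeioLC against PGC-1dMeioLC), 2 to 4 and 24 to 25 (LT-1dMeioLC against LT-1dEB) and 11 to 16 and 0 to 2 (stage difference). Replicate numbers did not pair the samples, since deviations from group means correlated between -0.03 and 0.04 over 28 group pairs; with a replicate block ST against LT in 1dEB had 24 lower. Unknown depth and 2 samples a group limit all values.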
